A study of Homo sapiens with 4 samples.

Results

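The genes described here are 37 genes of glycolysis and of the cell's response to low oxygen, picked by symbol from the deposited gene table, in which 18650 loci had a value above 0 in at least 1 library. They comprise 24 genes that carry glucose to lactate, 12 genes of oxygen sensing and of the hypoxia program, and TXNIP. The study measured RNA in HT-29 cells, which derive from a colorectal adenocarcinoma of a person, and in NCM460 cells, a colon epithelial line that served as the non-cancer counterpart. Each line was sequenced untreated (control) and after 24 h with 100 μg/mL of sturgeon chondroitin sulfate (SCS), a sulfated polysaccharide of sturgeon cartilage. Each of the 4 conditions was sequenced as 1 library, so no difference between conditions has a replicate check, and cell line, culture and library cannot be told apart. Both lines were grown in serum-containing medium under CO2, and the labels name no low-oxygen condition. Per the paper, the NCM460 medium held a higher fraction of serum than the HT-29 medium, so serum differs along with the line.

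Glycolysis splits glucose into pyruvate in the cytosol, and lactate dehydrogenase turns the pyruvate into lactate, which leaves the cell through monocarboxylate transporters. HIF-1, a pair of an oxygen-controlled alpha subunit and a stable partner, binds a short DNA element near its target genes, while prolyl hydroxylases mark the alpha subunit for destruction when oxygen is present. Many glycolytic genes are HIF-1 targets, as are genes for vessel growth, acid balance and collagen modification, and TXNIP is a gene switched on by glucose whose protein restrains glucose uptake.

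The libraries held between 1156567 and 1654764 fragments, of which between 13.8% and 62.3% fell on the mitochondrial genome, with counting intervals of at most 0.0909 percentage points to either side. Nuclear fragments numbered 1061700 in the untreated and 1383424 in the treated HT-29 library, and 507692 and 621582 in the NCM460 libraries. Levels below are CPM, fragments scaled to library size (counts per 1e6) with edgeR's TMM factors. Log2 fold changes carry a 95% interval for counting error only, given after the value, and a gene was called, written as rose or fell, past 1.5-fold with an interval off 0. Over all loci the log2 fold change followed the GC content of the transcript in NCM460 cells (Spearman's rho -0.63 across loci) and little in HT-29 cells (rho -0.12), so NCM460 values are also given with a smooth GC trend subtracted. The glycolysis members had a median GC content of 53.2%, against 48.9% for all loci compared in NCM460 cells. Of 12 colon epithelium markers, 8 were above 3 fragments in both HT-29 libraries and 6 in both NCM460 libraries. KRT8, KRT18, KRT19, EPCAM and CDH1 were present in both lines, CDX2 was at 0 in HT-29, VIL1, KRT20, LGALS4 and CDH17 were at 0 in NCM460, and CDX1 and GPA33 were at 0 throughout. The summed level of the 12 went from 6526 to 3535 CPM in HT-29 and from 4346 to 2659 CPM in NCM460 cells, and its part in the results below was not tested. The summed level of 9 mesenchymal markers was 7.33 and 10.8 CPM in HT-29 and 52.6 and 43.5 CPM in NCM460, and of the blood and endothelium markers PTPRC and CD3E were at 0, PECAM1 had at most 3 fragments, and CD68, in a locus merged with EIF4A1 and other genes, was at 318, 245, 607 and 577 CPM (HT-29 libraries before NCM460, control before SCS).

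The glycolysis members took a smaller share of nuclear fragments with SCS in both lines. In HT-29 cells the share went from 1.28% (1.26 to 1.30, exact binomial) to 0.612% (0.5995 to 0.626), and in NCM460 cells from 3.30% (3.26 to 3.35) to 1.82% (1.79 to 1.86). In HT-29 cells 10 of the 24 genes fell and 0 rose, where 14.8% of all 12168 loci compared were called lower and 16.8% higher. Their median log2 fold change was -0.53, against 0.07 for all loci. In NCM460 cells 16 fell and 2 rose, where 13.8% of 12657 loci were called lower and 15.4% higher, and the median was -0.87 against 0.03. After subtraction of the GC trend, 11 fell and 2 rose in NCM460 cells at a median of -0.63, and 6.23% of 12596 loci were then called lower and 5.59% higher. The genes that fell in both lines were SLC2A1, GPI, PFKL, TPI1, PGK1, PGAM1, ENO1 and PKM. With the trend subtracted in each line they were SLC2A1, GPI, PGK1, ENO1, PKM and LDHA. No share of all loci that fell in both lines stands beside these lists, so an excess of shared falls was not tested. With libraries scaled by total fragments only, mitochondrial ones included, 2 glycolysis genes rose and 5 fell in HT-29 cells, where 24.9% of loci were then called higher and 8.81% lower. In NCM460 cells 3 rose and 4 fell with that scaling, where 32.6% of loci were called higher and 2.05% lower. The mitochondrial share was lower with SCS in both lines, from 35.8% to 13.8% in HT-29 and from 62.3% to 46.3% in NCM460 cells, and its part in these values was not tested. In a bulk culture, fewer cells of a kind and less RNA per cell cannot be told apart.

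**Figure D1:**
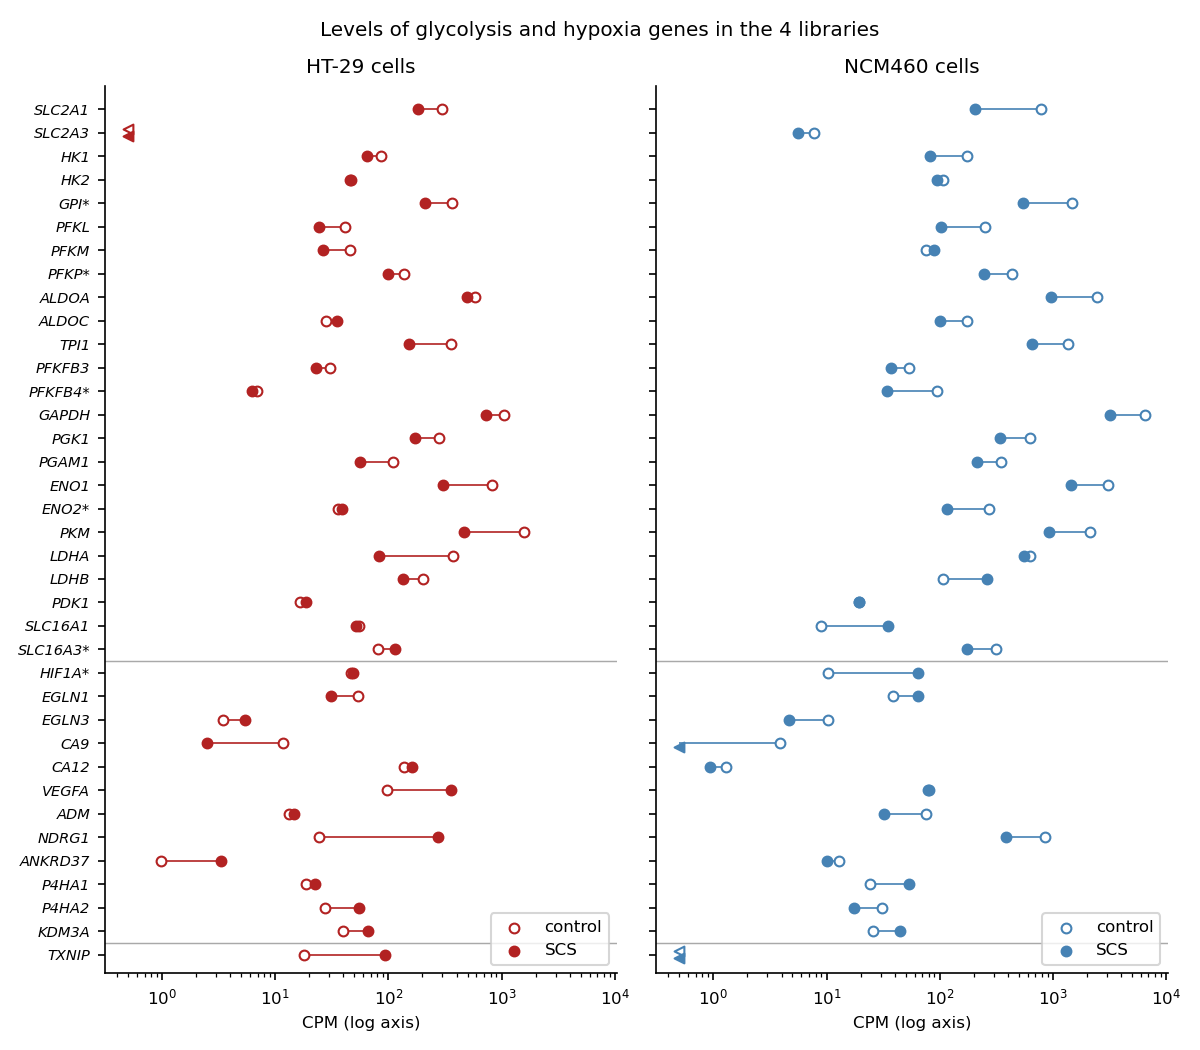
Levels of the 37 genes in HT-29 (left) and NCM460 (right) cells, in CPM on a log axis. Open circles are the control and filled circles the SCS library, triangles at the left edge mark 0 fragments, asterisks mark loci merged with an overlapping gene, and lines part glycolysis genes (top), hypoxia genes and TXNIP. Most glycolysis genes lie lower with SCS, while NDRG1 moved from 24.4 to 273 CPM in HT-29 and from 851 to 384 CPM in NCM460.

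Glucose enters through SLC2A1 (GLUT1), the main glucose transporter of proliferating cells, and it fell in both lines. SLC2A1 (ENSG00000117394), on chromosome 1 from 42925375 to 42959173 of GRCh38, had 300.1 CPM in the HT-29 control and 181 CPM in HT-29 with SCS, a log2 fold change of -0.72 (-0.91 to -0.55). It had 782 CPM in the NCM460 control and 204 CPM in NCM460 with SCS, a change of -1.93 (-2.16 to -1.71), or -1.46 with the GC trend subtracted. The fall was thus 1.65-fold in HT-29 and 3.81-fold in NCM460 cells, and the 4 levels put the NCM460 control far above the other libraries. SLC2A3 (GLUT3), a high-affinity transporter, had 0 fragments in both HT-29 libraries, which allows up to 1.47 and 1.25 CPM, and 6 and 6 fragments in NCM460 cells.

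Of the hexokinases, which trap glucose as its phosphate, HK1 was called in NCM460 cells and HK2 in neither line. HK1 was at 85.5, 64.5, 173 and 82.3 CPM in HT-29 control, HT-29 SCS, NCM460 control and NCM460 SCS, the order used below for every run of 4 values. It fell in NCM460 cells, by -1.06 (-1.48 to -0.68), and the HT-29 value of -0.40 (-0.73 to -0.09) was not called. HK2 was at 45.9, 46.6, 108 and 95.2 CPM, with 0.02 (-0.39 to 0.43) in HT-29 and -0.18 (-0.61 to 0.25) in NCM460 cells. The levels of HK2 were thus nearly level within each line. GPI, which turns glucose 6-phosphate into fructose 6-phosphate, fell in both lines and stood at 363, 211, 1479 and 543 CPM. Its log2 fold changes were -0.78 (-0.95 to -0.62) and -1.44 (-1.59 to -1.30), and its locus is merged with PDCD2L and so uncertain.

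Phosphofructokinase, which commits sugar to the pathway, has 3 subunit genes, and they did not move alike. PFKL, the liver-type subunit, fell from 41.1 to 24.1 CPM in HT-29 cells (-0.74, -1.27 to -0.27) and from 252 to 104 CPM in NCM460 cells (-1.27, -1.63 to -0.94), where -0.55 was left after the GC trend and no longer called. PFKM, the muscle-type subunit, fell in HT-29 cells from 93 to 63 fragments (-0.77, -1.28 to -0.32), although the deposited FPKM gave 0.16. In NCM460 cells PFKM was at 0.23 and not called. PFKP, the platelet-type subunit and the highest of the 3 in CPM, was at 137, 99.0, 431 and 248 CPM and fell in NCM460 cells (-0.80, -1.04 to -0.56), a call lost with the GC trend subtracted (-0.21). The HT-29 value of -0.47 (-0.73 to -0.22) was not called. PFKFB3 and PFKFB4 make or remove fructose 2,6-bisphosphate, the activator of phosphofructokinase. PFKFB3, at 30.3, 22.9, 53.9 and 37.0 CPM, was not called in either line, and PFKFB4, at 6.84, 6.24, 95.01 and 34.2 CPM, fell in NCM460 cells (-1.44, -2.08 to -0.89). PFKP shares its locus with PITRM1-AS1 and PFKFB4 with UCN2, so their values are uncertain.

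Aldolase cuts the sugar into triose phosphates, and its lead isoform split the lines. ALDOA was at 584, 499, 2433 and 958 CPM, which is -0.23 (-0.34 to -0.11) and not called in HT-29 cells, against a fall of -1.34 (-1.46 to -1.23) in NCM460 cells, or -0.90 with the GC trend subtracted. ALDOC, the brain isoform, was at 27.9, 35.4, 176 and 101 CPM, with 0.33 (-0.16 to 0.85) in HT-29 and a fall of -0.80 (-1.18 to -0.43) in NCM460 cells that was not called after the trend (-0.24). The triose phosphate isomerase TPI1 fell in both lines. Its levels were 358, 151, 1362 and 660.2 CPM, a 2.37-fold fall in HT-29 (-1.24, -1.44 to -1.07) and a 2.06-fold fall in NCM460 cells (-1.04, -1.18 to -0.91), where -0.46 remained after the trend, short of a call.

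From GAPDH on, glycolysis yields ATP, and all 6 genes of this stretch fell in NCM460 cells and 4 of them in HT-29 cells. After the GC trend 4 of the 6 fell in each line. GAPDH, a triose phosphate dehydrogenase that is often taken as a constant reference, was at 1041, 722, 6549.5 and 3228 CPM. It fell 2.03-fold in NCM460 cells (-1.02, -1.08 to -0.96; -0.38 after the GC trend, not called), and the 1.44-fold lower level in HT-29 cells (-0.53, -0.62 to -0.44) stayed short of the threshold. GAPDH, PGK1 and several other enzymes of this stretch have near-identical processed pseudogenes with which fragments could be shared, so their values are uncertain.

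PGK1, the first ATP-yielding kinase of the pathway, fell in both lines and has a transcript of 43.3% GC, below the median of all loci. It was at 281, 171, 632 and 343 CPM, a change of -0.71 (-0.90 to -0.53) in HT-29 and -0.88 (-1.08 to -0.68) in NCM460 cells. Subtracting the GC trend made its fall in NCM460 cells larger, -1.60. PGAM1, the phosphoglycerate mutase, was at 110.5, 55.8, 349 and 213 CPM and fell by -0.97 (-1.31 to -0.67) and -0.71 (-0.98 to -0.46), with -0.37 and no call in NCM460 cells after the trend.

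The enolase ENO1 and the pyruvate kinase PKM had the largest falls of the payoff stretch in HT-29 cells. ENO1 (ENSG00000074800, chromosome 1 from 8861002 to 8879249) was at 818, 301, 3080.2 and 1445 CPM, from 1673 to 723 fragments in HT-29 and from 2399 to 1563 fragments in NCM460 cells. This was -1.44 (-1.57 to -1.32) in HT-29 and -1.09 (-1.18 to -0.999) in NCM460 cells (-0.75 after the trend). Its relative ENO2, the neuronal enolase, did not follow in HT-29 cells, with 36.2, 39.1, 272 and 116 CPM and changes of 0.11 (-0.34 to 0.57) and -1.23 (-1.57 to -0.91), although its locus is merged with LRRC23 and is uncertain. PKM (ENSG00000067225, chromosome 15 from 72199029 to 72231822) was the highest member by CPM in the HT-29 control and was at 1587, 470.2, 2152 and 928 CPM. It went from 3248 to 1130 fragments in HT-29 cells, 3.37-fold lower (-1.75, -1.85 to -1.66), and from 1676 to 1004 fragments in NCM460 cells, 2.32-fold lower (-1.21, -1.33 to -1.10; -0.83 after the trend). Both SCS libraries lay below both controls.

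At the branch of pyruvate the lines parted. LDHA (ENSG00000134333, chromosome 11 from 18394388 to 18408425), the lactate dehydrogenase subunit that favours lactate, had the largest fall of all members in HT-29 cells, from 761 to 200 fragments or from 372 to 83.2 CPM, 4.42-fold (-2.14, -2.39 to -1.93). In NCM460 cells it was at 628 and 560 CPM (-0.16, -0.34 to 0.01) and was not called. It was called lower there with the GC trend subtracted (-0.80). The deposited FPKM, which has no counting interval, gave -0.85, where the median of all loci was -0.30. Nuclear scaling gave 0.0175 and total fragments 0.53, so the direction of LDHA in that line rests on the scaling. LDHB, the subunit that favours pyruvate, went the other way in NCM460 cells, from 84 to 286 fragments (1.28, 0.94 to 1.66; 0.96 after the trend), and was at -0.58 (-0.80 to -0.37), not called, in HT-29 cells. Within each line the log2 fold change of LDHA thus lay below that of LDHB.

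PDK1, a mitochondrial kinase that inhibits pyruvate dehydrogenase, was at 34, 45, 15 and 21 fragments and was not called in either line. It was called lower in NCM460 cells after the trend, at -1.08 (-2.11 to -0.02), from 15 and 21 fragments. SLC16A1 (MCT1), a lactate transporter that works in both directions, rose in NCM460 cells from 7 to 38 fragments (1.83, 0.79 to 3.38; 1.12 after the trend) and was at -0.09 (-0.48 to 0.29) in HT-29 cells. SLC16A3 (MCT4), the exporter of glycolytic cells, was at 81.1, 114, 315 and 173 CPM and fell in NCM460 cells (-0.86, -1.15 to -0.58), which the trend reduced to -0.15 and no call. The SLC16A3 locus is merged with MIR6787. The SLC16A1 values come from a patch sequence added to the genome and not from a chromosome, so they are uncertain.

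**Figure D2:**
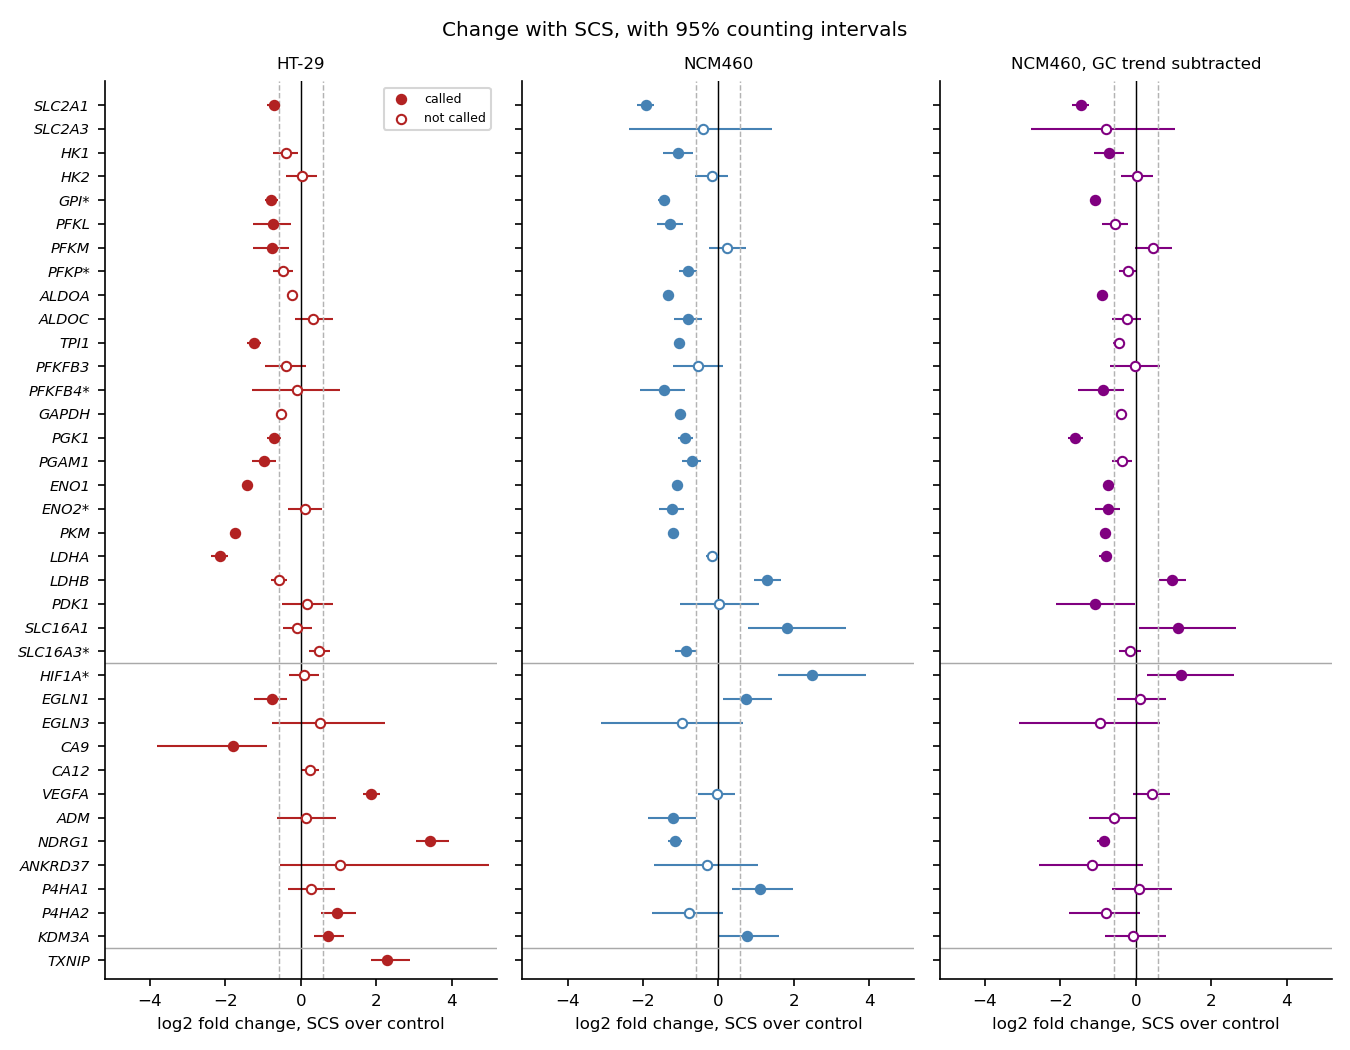
Log2 fold change of SCS over control for each gene, in HT-29 cells (left), in NCM460 cells (middle) and in NCM460 cells with the GC trend subtracted (right). Bars are 95% counting intervals, filled points were called, dashed lines mark 1.5-fold, and asterisks mark merged loci; genes at 3 fragments or fewer in both libraries have no point. Of the 24 glycolysis genes, 10 fell in HT-29 cells, 16 in NCM460 cells and 11 after the trend.

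The hypoxia members took a larger share of nuclear fragments with SCS in HT-29 cells and a smaller one in NCM460 cells. Their summed share of nuclear fragments went from 0.0915% (0.0858 to 0.0974) to 0.181% (0.174 to 0.188) in HT-29 and from 0.179% (0.167 to 0.191) to 0.131% (0.122 to 0.141) in NCM460 cells. NDRG1 alone held 663 of the 908 hypoxia fragments in the NCM460 control and 415 of 816 with SCS. The smaller sum there thus rests on NDRG1 and does not describe the set. Of the 12 genes, 4 rose and 2 fell in HT-29 cells, where 16.8% of all loci were called higher and 14.8% lower, at a median of 0.38 against 0.07 for all loci. In NCM460 cells 10 could be compared, and 4 rose and 2 fell, at backgrounds of 15.4% and 13.8%. The median there was -0.17 against 0.03, or 0.47 with libraries scaled by total fragments only, which lifts the median of all loci to 0.65. After the trend 1 rose and 1 fell there, at backgrounds of 5.59% and 6.23% and a median of -0.32.

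The genes of oxygen sensing came out unlike each other. HIF1A, the alpha subunit itself, was level in HT-29 cells, at 95 and 118 fragments (0.08, -0.32 to 0.49), and rose in NCM460 cells from 8 to 69 fragments (2.50, 1.58 to 3.90). Its transcript is the most GC-poor of the members (36.4%), and subtracting the trend left 1.20 (0.29 to 2.61), still called. The HIF1A locus is merged with SNAPC1 and is uncertain. EGLN1 (PHD2), the main prolyl hydroxylase that marks HIF-1 alpha, fell in HT-29 cells from 111 to 75 fragments (-0.77, -1.24 to -0.36) and rose in NCM460 cells from 30 to 70 fragments (0.73, 0.11 to 1.42), a rise that was 0.11 and not called after the trend. EGLN3 (PHD3), a sensor that is itself hypoxia-induced, held only 7, 13, 8 and 5 fragments, and its changes of 0.51 (-0.77 to 2.23) and -0.97 (-3.11 to 0.64) were not detectable at this depth.

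Of the target genes, NDRG1 and VEGFA carried most of the rise in HT-29 cells. NDRG1, a stress gene strongly induced by low oxygen, had 50, 656, 663 and 415 fragments, or 24.4, 273, 851 and 384 CPM. It rose 10.7-fold in HT-29 (3.42, 3.07 to 3.93) and fell 2.21-fold in NCM460 cells (-1.15, -1.33 to -0.97; -0.86 after the trend). The NCM460 control was the highest of the 4 libraries and the HT-29 control by far the lowest. VEGFA (ENSG00000112715, chromosome 6 from 43770184 to 43786487), the growth factor of blood vessels, went from 198 to 856 fragments in HT-29, 3.65-fold higher (1.87, 1.66 to 2.11), and was at 63 and 85 fragments in NCM460 cells (-0.04, -0.53 to 0.45). The HT-29 SCS library stood at 356 CPM, above the other 3 libraries, which lay between 78.6 and 96.8 CPM.

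The genes of collagen and chromatin modification gave smaller changes. P4HA2, a subunit of collagen prolyl hydroxylase, rose in HT-29 cells from 56 to 131 fragments (0.96, 0.53 to 1.47) and was not called in NCM460 cells (-0.77, -1.76 to 0.12). Its sister P4HA1 was not called in HT-29 (0.26, -0.35 to 0.91) and rose in NCM460 cells from 19 to 58 fragments (1.10, 0.37 to 1.97), with 0.09 left after the trend. KDM3A, a histone demethylase, rose in both lines, from 82 to 160 fragments (0.71, 0.34 to 1.13) and from 20 to 48 fragments (0.76, 0.01 to 1.62), but the trend turned the NCM460 value to -0.07, and the HT-29 call was lost with the trend too (0.58). KDM3A also lost the HT-29 call with nuclear scaling and with libraries thinned to equal nuclear depth, and the NCM460 call with DESeq2 size factors.

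Among the targets in HT-29 cells, the 1 fall came from a gene of acid balance. CA9, a carbonic anhydrase that is among the most oxygen-sensitive of HIF-1 targets, fell in HT-29 cells from 24 to 6 fragments (-1.79, -3.81 to -0.90) and had 3 and 0 fragments in NCM460 cells, too few for a comparison. CA12, a related enzyme, was at 281 and 392 fragments in HT-29 (0.25, 0.02 to 0.47) and at 1 and 1 fragment in NCM460 cells. Its ratio of SCS to control in NCM460 cells, 0.720, has a counting interval from 0.00917 to 56.5. ADM, a vessel-dilating peptide, was at 27, 35, 59 and 35 fragments and fell in NCM460 cells (-1.20, -1.87 to -0.60), which the trend reduced to -0.57 and no call. ANKRD37, an HIF-1 target of unclear function, had 2 and 8 fragments in HT-29 cells, a ratio of 3.41 with a counting interval from 0.680 to 32.9, and 10 and 11 fragments in NCM460 cells.

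TXNIP (ENSG00000265972, chromosome 1 from 145992435 to 145996600) rose in HT-29 cells from 37 to 223 fragments, 4.86-fold (2.28, 1.85 to 2.90). It had 0 fragments in both NCM460 libraries, which allows up to 3.85 and 2.77 CPM. The untreated HT-29 level was 4.69-fold above the NCM460 floor of 3 fragments, and the counting interval of the ratio to NCM460 starts at 3.63. ARRDC4, the closest relative of TXNIP and a further glucose-responsive gene, rose in HT-29 cells from 4 to 26 fragments (1.91, 0.94 to 4.45) and was at 6 and 2 fragments in NCM460 cells, where its ratio rests on 2 fragments.

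**Figure D3:**
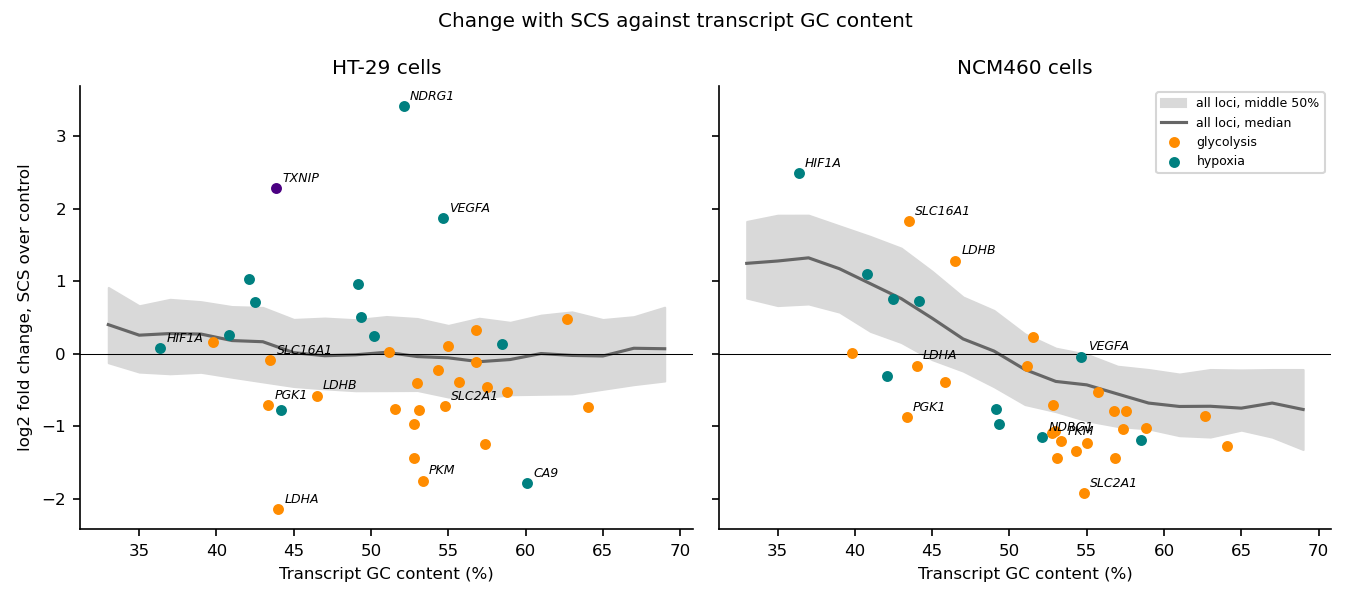
Log2 fold change of SCS over control against transcript GC content in HT-29 (left) and NCM460 (right) cells. The grey line and band are the median and middle 50% of all loci compared in bins of GC content, orange points are glycolysis genes, green points hypoxia genes and the purple point TXNIP. In NCM460 cells the line falls with GC content and most glycolysis genes lie below it, while in HT-29 cells NDRG1, TXNIP and VEGFA lie far above a nearly flat line.

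The promoters below show the motif letters found in members that moved in opposite directions. They are the 300 bases from 250 before to 50 after the first listed start of each gene, from RefSeq on GRCh38.p14, read 5′ to 3′ on the gene's strand, and 33 of the 37 members had an entry; SLC2A3, SLC16A1, VEGFA and NDRG1 are named only. Capitals mark the core of the hypoxia response element (ACGTG or GCGTG, on either strand) and, in TXNIP, also the carbohydrate response element (CACGNG, 5 bases, then CNCGNG). The E box CACGTG holds the hypoxia core on both strands and so counts as 2 core matches.
The LDHA promoter (chr11:18394313-18394612 on the plus strand) holds 6 core matches, including 2 E boxes that begin 185 and 87 bases upstream, and this gene fell most in HT-29 cells.
LDHA: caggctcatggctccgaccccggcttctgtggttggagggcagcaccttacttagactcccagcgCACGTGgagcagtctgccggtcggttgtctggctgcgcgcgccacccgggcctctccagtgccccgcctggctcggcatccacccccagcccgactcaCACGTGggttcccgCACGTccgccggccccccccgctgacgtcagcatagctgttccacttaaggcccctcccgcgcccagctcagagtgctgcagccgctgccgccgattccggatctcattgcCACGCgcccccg
The PGK1 promoter (chrX:78103998-78104297 on the plus strand) holds 4 core matches.
PGK1: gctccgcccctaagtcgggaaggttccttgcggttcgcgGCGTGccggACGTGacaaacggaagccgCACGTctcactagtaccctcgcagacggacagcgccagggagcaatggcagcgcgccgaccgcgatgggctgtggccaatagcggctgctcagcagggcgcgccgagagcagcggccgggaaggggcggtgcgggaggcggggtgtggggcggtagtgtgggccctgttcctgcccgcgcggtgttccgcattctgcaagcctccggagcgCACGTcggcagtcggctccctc
The ENO1 promoter (chr1:8878637-8878936 on the minus strand) holds 2.
ENO1: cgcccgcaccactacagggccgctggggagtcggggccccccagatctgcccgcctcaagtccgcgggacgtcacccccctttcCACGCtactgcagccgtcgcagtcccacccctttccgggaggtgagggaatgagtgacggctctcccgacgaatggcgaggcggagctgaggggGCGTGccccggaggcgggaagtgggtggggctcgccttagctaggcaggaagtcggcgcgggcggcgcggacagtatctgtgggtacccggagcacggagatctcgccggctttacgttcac
The CA9 promoter (chr9:35673678-35673977 on the plus strand) holds 1, 18 bases upstream, and CA9 fell in HT-29 cells.
CA9: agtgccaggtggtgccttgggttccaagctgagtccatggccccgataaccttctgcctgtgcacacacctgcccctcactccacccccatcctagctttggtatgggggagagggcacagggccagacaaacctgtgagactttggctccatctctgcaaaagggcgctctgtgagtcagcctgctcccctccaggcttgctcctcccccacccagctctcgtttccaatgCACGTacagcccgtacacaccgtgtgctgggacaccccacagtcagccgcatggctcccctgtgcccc
The KDM3A promoter (chr2:86441121-86441420 on the plus strand) holds 1, 26 bases upstream, and KDM3A rose in both lines before the GC trend was subtracted.
KDM3A: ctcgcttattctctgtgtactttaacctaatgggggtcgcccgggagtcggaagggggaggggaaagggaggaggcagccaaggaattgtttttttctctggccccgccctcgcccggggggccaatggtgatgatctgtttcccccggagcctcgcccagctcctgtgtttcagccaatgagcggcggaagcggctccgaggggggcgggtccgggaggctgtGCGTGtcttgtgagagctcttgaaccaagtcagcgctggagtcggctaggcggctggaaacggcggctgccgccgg
The TXNIP promoter (chr1:145996530-145996829 on the minus strand) holds 2 core matches and 1 carbohydrate element that begins 88 bases upstream.
TXNIP: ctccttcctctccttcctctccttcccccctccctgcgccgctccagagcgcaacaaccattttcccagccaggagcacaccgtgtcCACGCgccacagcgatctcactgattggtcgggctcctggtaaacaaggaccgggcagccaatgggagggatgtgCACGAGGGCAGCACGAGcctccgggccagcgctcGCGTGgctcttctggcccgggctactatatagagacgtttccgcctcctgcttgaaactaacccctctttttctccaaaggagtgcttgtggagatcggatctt
Of the 27305 RefSeq promoters of the same length, 48.4% hold a hypoxia core, 7.43% an E box and 0.524% a carbohydrate element. Among the members the core was found in 15 of 22 glycolysis genes and in 8 of 10 hypoxia genes with an entry, and the carbohydrate element in TXNIP and P4HA1. The core was found in genes that fell, such as LDHA and PGK1, and in KDM3A and TXNIP, which rose in HT-29 cells. P4HA2, which rose in HT-29 cells, had none in this window.

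The lines differed in these genes before treatment. Of the 37, 23 were lower and 5 higher in the HT-29 than in the NCM460 control, where 23.1% of 12691 loci compared were called lower and 25.3% higher. With the GC trend subtracted the counts were also 23 and 5, at backgrounds of 19.2% and 18.6%, but 4 genes left the calls (PFKM, PFKFB3, LDHB and HIF1A) and 4 joined them (PDK1, CA9, VEGFA and P4HA1). Scaled by total fragments only, 11 were higher and 14 lower, at backgrounds of 51.1% and 8.94%. Among glycolysis genes 20 were lower, with a median of -1.65 against 0.10 for all loci. GAPDH was 6.29-fold lower (-2.65, -2.73 to -2.58), ALDOA 4.16-fold (-2.06, -2.17 to -1.95) and ENO2 7.31-fold (-2.87, -3.31 to -2.52), while PKM was at -0.44 (-0.52 to -0.35) and not called. Between the untreated lines the log2 fold change also followed GC content (rho -0.51). With the trend subtracted the glycolysis median was -1.38, and GAPDH was 3.81-fold lower, ALDOA 3.10-fold and ENO2 5.29-fold. The higher genes in HT-29 were SLC16A1 (2.45, 1.52 to 3.95), LDHB (0.89, 0.56 to 1.25), HIF1A (2.05), CA12 and TXNIP. CA12, with 281 fragments against 1, gave a ratio of 107 with a counting interval from 19.0 to 4240.

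Per length of transcript, in FPKM as deposited, GAPDH was the highest member in both controls and in NCM460 with SCS, at 611, 378, 4267 and 1883 FPKM. In the HT-29 control it was followed by PKM (576 FPKM), ALDOA (422) and ENO1 (409.6), and in the NCM460 control by ALDOA (2722), ENO1 (2152) and TPI1 (1343). In HT-29 with SCS, ALDOA (406 FPKM) stood first and GAPDH next, and PKM came to 163 FPKM. VEGFA was at 24.8, 92.8, 25.9 and 24.97 FPKM, which puts it above LDHA (33.5 FPKM) in HT-29 with SCS and below it in the control (169.6). These orders have no replicate error, so neighbours of similar FPKM are not told apart.

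**Figure D4:**
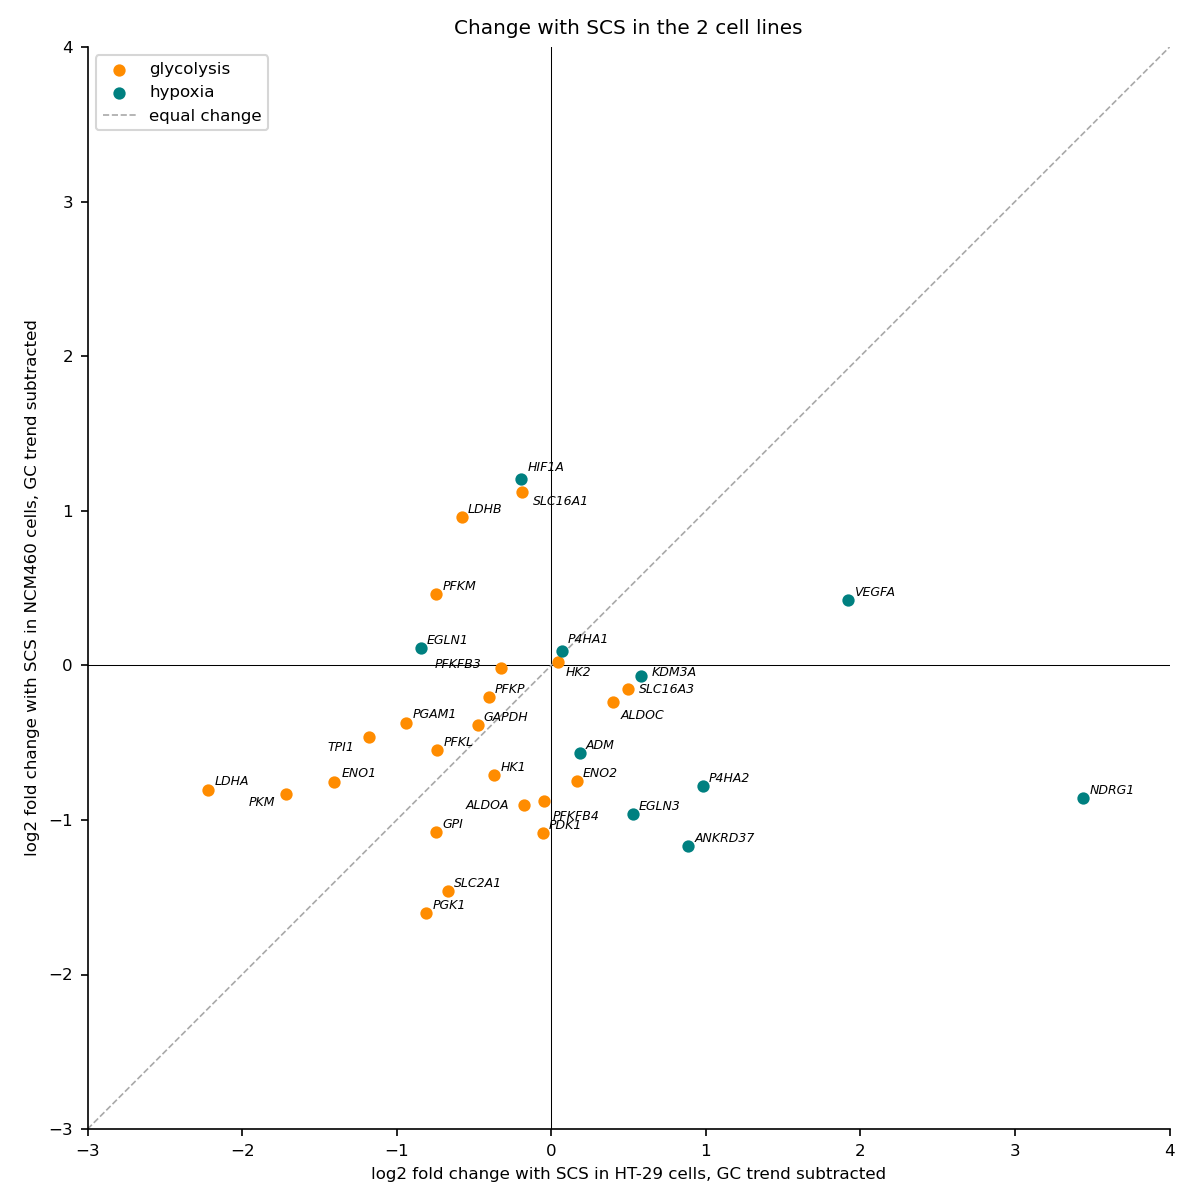
Log2 fold change with SCS in HT-29 (horizontal) and NCM460 (vertical) cells for each gene that could be compared in both, with the GC trend subtracted in each line; orange points are glycolysis genes, green points hypoxia genes, and the dashed line marks equal change. The falls of PKM, ENO1 and LDHA are larger in HT-29, those of SLC2A1 and PGK1 in NCM460, and NDRG1 lies furthest from the line.

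Because a call in a single line does not show that the lines differ, the difference of the log2 fold changes (HT-29 minus NCM460) was given with its own counting interval. It could be formed for 33 members. It was past 1.5-fold and off 0 toward a higher change in HT-29 for 12, at a background of 12.4% of 10844 loci, and toward a lower change for 6, at 16.8%. With the GC trend subtracted these were 10 and 9, at 9.20% and 11.8%, and 8 and 6 genes were called in the same direction both ways. Toward a higher change in HT-29, NDRG1 had the largest difference, 4.56 (4.17 to 5.11), followed among the called genes by VEGFA at 1.91 (1.37 to 2.46) and P4HA2 at 1.73 (0.75 to 2.87). Among glycolysis genes SLC2A1 (1.21, 0.92 to 1.502), ALDOA (1.12, 0.96 to 1.28), ENO2 (1.34, 0.78 to 1.92) and SLC16A3 (1.34, 0.95 to 1.76) changed less downward or more upward in HT-29 cells. LDHA (-1.98, -2.29 to -1.71), LDHB (-1.86, -2.31 to -1.46), SLC16A1 (-1.92, -3.52 to -0.80) and PFKM (-0.99, -1.72 to -0.33) went further down, or less far up, in HT-29 cells. So did HIF1A (-2.42, -3.88 to -1.40) and the prolyl hydroxylase EGLN1 (-1.50, -2.35 to -0.76). The differences of TPI1 (-0.20, -0.44 to 0.03), PGAM1 (-0.26, -0.68 to 0.14) and PGK1 (0.17, -0.11 to 0.44) had intervals that included 0. With the GC trend subtracted all 3 intervals lay off 0, and TPI1 at -0.72 and PGK1 at 0.79 were called, while PGAM1 at -0.57 was short of 1.5-fold.

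A change with SCS common to both lines was tested with edgeR's quasi-likelihood test on the recovered fragments with cell line as a term, which left 1 residual degree of freedom. The edgeR test called 0 of the 37 members and 9 of 12942 loci (0.0695%) at a Benjamini-Hochberg adjusted p under 0.05. At an unadjusted p under 0.05 the edgeR count was 8 members, 7 of them with a shared change below 0, and 695 loci (5.37%). The smallest adjusted p among members in edgeR was 0.349 for PKM, at a shared log2 fold change of -1.48 and a lower level in both SCS libraries. DESeq2 with the same terms called PKM (adjusted p = 0.00474) and ENO1 (adjusted p = 0.0200), with changes of -1.55 and -1.33, among 27 of 1651 loci with an adjusted p (1.64%). At an unadjusted p under 0.05 DESeq2 called 9 members, all 9 with a change below 0, and 230 loci (1.78%).

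Further genes of these pathways were listed apart from the 37. Their counts stand against the shares of all loci called, for HT-29 16.8% higher and 14.8% lower, for NCM460 15.4% and 13.8%, and 5.59% and 6.23% in NCM460 cells after the trend. Of 21 other glycolysis genes, many of them isoforms of other tissues, 9 could be compared in HT-29 cells, and 2 rose and 0 fell. HKDC1, a hexokinase of the gut, rose from 35 to 221 fragments (2.34, 1.91 to 2.98). In NCM460 cells 8 could be compared, and 1 rose and 1 fell, namely PGM2 from 4 to 23 fragments (1.82, 0.50 to 4.04) and BSG, the partner of the lactate transporters, from 588 to 443 fragments (-0.88, -1.06 to -0.70). Neither was called with the GC trend subtracted, at 0.73 and -0.19.

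Of 13 genes of the mitochondrial pyruvate carrier, of pyruvate dehydrogenase and its regulators and of pyruvate carboxylase, 4 rose and 2 fell in HT-29 cells, and 3 rose and 1 fell in NCM460 cells, or 1 and 1 after the trend. MPC1, a subunit of the carrier that brings pyruvate into mitochondria, rose in HT-29 cells from 17 to 62 fragments (1.499, 0.84 to 2.50), and the pyruvate carboxylase PC fell from 31 to 19 fragments (-0.84, -1.84 to -0.07). In NCM460 cells DLD rose (1.75, 0.70 to 3.30) and PDK2 fell (-1.55, -2.91 to -0.55), at 0.62 and -0.89 after the trend, not called.

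Of 13 further oxygen sensing genes, 4 rose and 0 fell in HT-29 cells, with SIAH1, a ligase for the prolyl hydroxylases, from 21 to 75 fragments (1.49, 0.89 to 2.38). In NCM460 cells 1 fell, EGLN2, at -0.89 (-1.65 to -0.21), in a locus merged with RAB4B, with -0.38 and no call after the trend. After the trend 0 rose and 1 fell there, a gene other than EGLN2. Of 36 further hypoxia targets 30 could be compared in HT-29 cells, where 10 rose and 4 fell at a median of 0.39, against 0.07 for all loci. DDIT4, an inhibitor of mTORC1, rose from 22 to 242 fragments (3.08, 2.60 to 3.93), and the adenylate kinase AK4 fell from 53 to 25 fragments (-1.22, -2.06 to -0.60). In NCM460 cells 32 could be compared, where 6 rose and 9 fell, or 2 and 5 after the trend. RIOK3 rose from 7 to 34 fragments (1.67, 0.61 to 3.22; 0.71 after the trend, not called), and the glycogen synthase GYS1 fell from 107 to 37 fragments (-1.97, -2.59 to -1.45; -1.34). BNIP3, a mitophagy gene and classical HIF-1 target, had only 2 and 4 fragments in HT-29 cells and 22 and 20 fragments in NCM460 cells (-0.58, -1.56 to 0.33).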

How the data were processed

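RNA of HT-29 and NCM460 cells, control and SCS, 1 library per condition, was analysed from 1 deposited table. Per the labels, libraries were made from total RNA with a NEBNext Ultra kit, taken as unstranded, so overlapping and antisense genes cannot be told apart. The paper names TRIzol, an Illumina HiSeq instrument and Cuffdiff, and the submitters' processing notes name bcl2fastq 2.17.1.14, cutadapt 1.9.1, Bowtie2, HTSeq 0.6.1 and hg19. The table's coordinates are those of GRCh38 (93.4% of identifiers found in GENCODE release 29 have the same start and end), and are given as such. The authors deposited a count column that is a signal, fragments divided by a size factor of the library, and an FPKM column, fragments scaled by transcript length and library size. The design had assumed whole counts. Once each deposited count value was divided by that of a lone fragment, whole numbers (within 0.05) came out for 99.8% to 99.9% of values above 0. Rows with no gene name held at most 0.0943% of fragments and were left out, and rows with identical values were merged, so that 1812 loci hold several genes.

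Fragments were scaled by TMM (edgeR version 4.0.16, R 4.3.3) and compared at a prior count of 2 where the mean was at least 1 CPM. Intervals are exact Clopper-Pearson at 95%, and those of the differences between lines are exact conditional intervals of an odds ratio at 95%. The GC trend is a lowess curve (span 0.3, statsmodels 0.14.6). Count tests could be fitted only across both lines (edgeR, and DESeq2 1.42.0 as an alternative), so p-values treat the lines as replicates. Alternatives were DESeq2 size factors, total or nuclear fragments only, a prior count of 0.5, all loci or a mean of at least 5 CPM, GC and expression trends, thinning and the deposited FPKM (log2 of value + 0.5). For FPKM a call used the fold alone, without an interval. The method was tested on simulated counts that held counting error only. They had no difference between lines, GC trend, mitochondrial shift or variation between libraries, so how it fares with these was not tested. All 37 members are named, and of other lists the largest called rise and fall per line among genes averaging 10 CPM or more, with ARRDC4 and BNIP3. A gene of the pentose phosphate list that this rule names and a blood marker are not reported here. Members and lists were chosen with earlier results of these data known.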

Additional observations from a re-analysis of the deposited data

Results flagged for a closer look

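NDRG1 and EGLN1 were called in opposite directions in the 2 lines. NDRG1 had 50, 656, 663 and 415 fragments in HT-29 control, HT-29 SCS, NCM460 control and NCM460 SCS, and its log2 fold change in HT-29 minus that in NCM460 cells was 4.56. EGLN1 had 111, 75, 30 and 70 fragments, with a difference of -1.50. Each direction rests on 1 library per condition, and these differences were not tested against replicates. With the GC trend subtracted the differences were 4.30 and -0.95, and EGLN1 was then not called in NCM460 cells.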

How the results depend on the processing

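Depth limits genes under about 10 fragments, chiefly in NCM460 cells, where 3 fragments are worth 3.85 and 2.77 CPM. Scaling by total fragments only, which includes the mitochondrial genome and lifts the median of all loci to 0.31 in HT-29 and 0.65 in NCM460 cells and to 1.143 between the untreated lines, moved most: glycolysis genes in HT-29 cells then numbered 2 risen and 5 fallen with a median of -0.25, and in NCM460 cells 4 fallen with a median of -0.18. Of the hypoxia genes 1 fell in HT-29 and 0 in NCM460 cells. Without SCS, 11 members were then higher and 14 lower in HT-29 cells, with HK1 (0.0774), PFKM (0.35), PFKFB3 (0.26) and LDHA (0.34) turned to higher. With nuclear fragments only, 8 members were higher there, where 4094 of 12875 loci were called higher. Thinning to equal nuclear depth gave 1 risen glycolysis gene and 1 fallen hypoxia gene in HT-29 cells. Of 12622 loci, 1414 were then called higher and 1246 lower. With the GC trend subtracted, the NCM460 glycolysis median was -0.63, 1 hypoxia gene rose and 1 fell there, and KDM3A turned to -0.068. By the deposited FPKM the NCM460 glycolysis median was -1.31, against -0.30 for all loci. There 2 hypoxia genes were higher and 4 lower by fold alone, where 3022 of 12657 loci were higher and 4942 lower. PFKM in HT-29 cells turned to 0.16. DESeq2 called 2 members and 27 loci for a shared change, against 0 and 9 in edgeR. The cause of these shifts was not tested. Of the 17 members called in HT-29 cells, 11 kept the call by total fragments only, 12 after thinning and at least 16 under each other alternative. Of the 24 in NCM460 cells, 10 kept it by total fragments only, 13 after the GC trend, 19 after an expression trend and at least 22 under each other alternative. Calls were gained too, 7 in each line by the fold of the deposited FPKM alone and at most 3 under any other alternative. PDK1 was among the 7 in both lines (-1.08 in HT-29 and -1.77 in NCM460 cells). By FPKM 5823 of 12168 loci were called in HT-29 and 7964 of 12657 in NCM460 cells. No paired analysis was possible within a line because each condition has 1 library, and the shared fits with cell line as a term pair the libraries by line.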

Other observations

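Side branches of the pathway were counted too, where all loci were called higher and lower at 16.8% and 14.8% for HT-29, and at 15.4% and 13.8% for NCM460. Of 10 pentose phosphate genes, which make NADPH and ribose from glucose 6-phosphate, 3 rose and 2 fell in HT-29 cells, and 1 rose and 2 fell in NCM460 cells, or 0 and 1 after the GC trend. PGD, an NADPH-yielding enzyme of that branch, rose in HT-29 cells from 288 to 703 fragments (1.049, 0.86 to 1.26). RPE had 3 and 22 fragments in NCM460 cells, too few in the control for a fold.

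Of 7 gluconeogenesis genes 4 could be compared in HT-29 cells, where 1 rose and 3 fell. PCK2, the mitochondrial enzyme that makes phosphoenolpyruvate, rose in HT-29 cells from 62 to 115 fragments (0.64, 0.20 to 1.13) and fell in NCM460 cells from 51 to 22 fragments (-1.63, -2.48 to -0.94; -0.93 after the GC trend). SLC37A4, the glucose 6-phosphate transporter, fell in HT-29 cells from 38 to 13 fragments (-1.57, -2.81 to -0.84). Of 6 glucose sensing genes 3 rose in HT-29 cells, and 2 rose and 1 fell in NCM460 cells, or 0 and 1 after the trend. ARRDC3 rose in HT-29 cells from 79 to 191 fragments (1.02, 0.66 to 1.44) and in NCM460 cells from 7 to 39 fragments (1.86, 0.83 to 3.41; 0.63 after the trend, not called). MLXIP (MondoA), a glucose-sensing transcription factor, fell in NCM460 cells (-0.82, -1.41 to -0.27; -0.21 after the trend, not called).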
